A study of Drosophila melanogaster with 15 samples.

Results

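In whole Drosophila melanogaster embryos, 59 probe sets of the array were brighter in both trichome mutants than in wild type on every array. They were found by a rule on the log2 signal. The highest of the 3 genotype means had to be at least 5 (a signal of 32), and all 5 arrays of svb mutants and all 5 arrays of pri mutants had to lie above all 5 wild-type (wt) arrays. Of 18952 probe sets, 183 are controls of the array, and 8631 of the other 18769 reached the level. The 59 members are 0.684% of those 8631. Another 17 probe sets had the same order of arrays but stayed under the level in all genotypes.

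RNA came from 5 independent samples per genotype, each of 200 embryos labelled as 13 to 15 h after egg laying, and each sample was hybridised to 1 Affymetrix Drosophila Genome 2.0 array. The eggs were laid within 2 h at 25°C and the embryos aged at 18°C, and it is not stated to which temperature the hours refer. The groups were wt, svb -/- (allele svbR9) and pri -/- (allele pri1), with mutants genotyped as homozygous, per the labels, by means of fluorescent balancer chromosomes. The sources used here give neither the strain of the wt embryos nor the sex of any embryos, and no test of either was made.

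The transcription factor Shavenbaby (Svb) sets which epidermal cells grow trichomes, the actin-rich hairs and denticles of the larval cuticle. It is made as a long form that represses genes, and small peptides encoded by pri (polished rice) cause its N terminus to be cut off, which turns it into an activator. Embryos without svb therefore lack both forms, whereas embryos without pri keep the repressor. A transcript that Svb activates would be lower in both mutants, and the members described here were picked for the opposite order. Because whole embryos were used, more cells of a type and more RNA per cell cannot be told apart for any value here.

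The deposited value table and the gene table used here do not pair probe sets with genes, so the 59 members have no gene names or sequences, and neither cell type markers nor svb and pri themselves could be looked up as a check of the labels. For 145 of the 149 rows of the authors' table of selected genes, 1 probe set with the same 15 signals was found, and 0 of the 59 members were among them. Members are numbered 1 to 59 by the smaller of their 2 mean log2 differences to wt, dim signals taken as they are, and only the first 2 are given by identifier. By the ending of their identifiers, 46 members were plain probe sets, 4 were of the kind designed for several transcripts of a gene, and 9 of the kind whose probes can match transcripts of several genes (15.3% of members, against 15.6% of the 8631).

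Each order taken alone was met by many more probe sets. All svb arrays lay above all wt arrays for 204 probe sets (2.36% of those tested), and all pri arrays above all wt arrays for 1274 (14.8%). The 59 members make up 28.9% of the first list and 4.63% of the second. Both lists share the wt arrays. The opposite order, with every array of both mutants below wt, held for 89 probe sets. Another 66 lay below wt in svb but above it in pri, and 18 the other way round. Since the rule itself fixed that members are higher than wt in both mutants, all rises over wt below are a description and carry no test.

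The members fell into 2 kinds by their level in wt. The mean signal was at or above the filter level in wt for 38 members and under it for 21. The 21 dim ones reached the level only through a mutant, 11 of them in both mutants, 6 in pri alone and 4 in svb alone, so that they had to differ from wt. For these members a fold is given only as a bound against the level, which stands in for background, and the bounds ran from 1.003-fold to 5.37-fold in svb (15 members) and from 1.04-fold to 57.2-fold in pri (17 members). Both bounds were at least 2-fold for 2 of the 21, members 3 and 4.

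For the 38 members with a wt level, the rise could be measured on both sides. The median rise over wt was 0.72 on the log2 scale in svb mutants (1.65-fold), with a range from 0.28 to 2.55. In pri mutants it was 0.72 (1.65-fold), from 0.29 to 2.23. Over all 8631 tested probe sets the median differences were -0.01 in svb and -0.04 in pri.

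**Figure D1:**
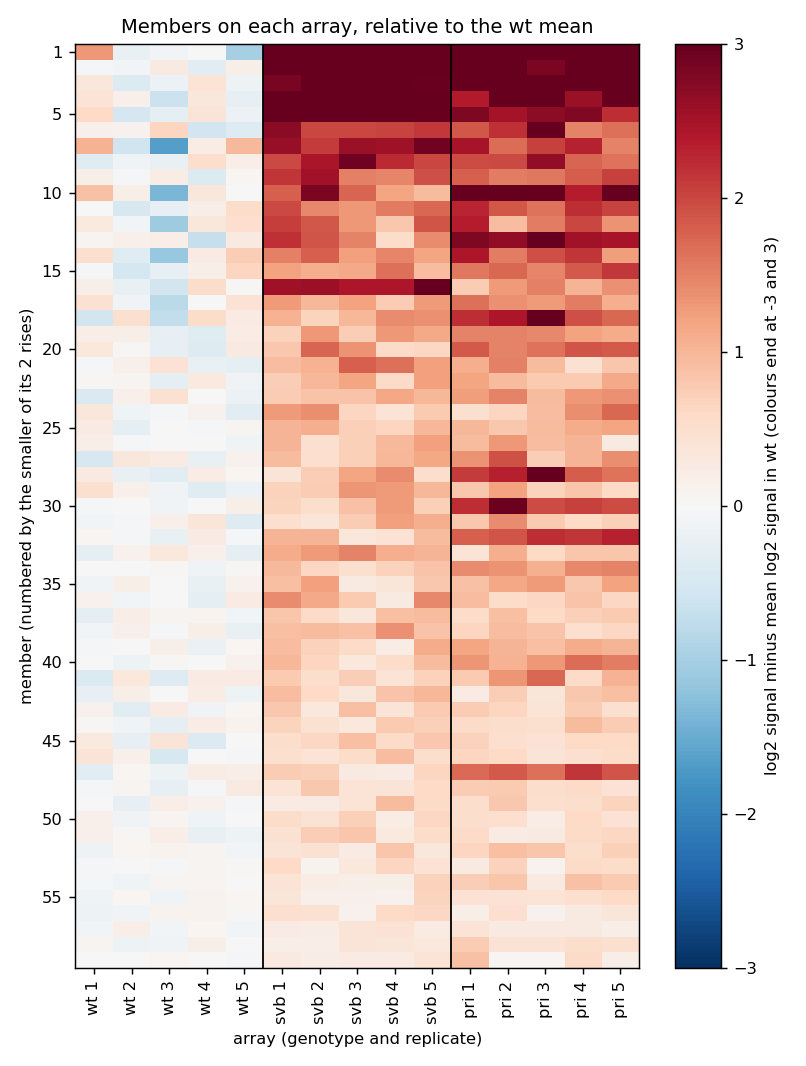
Log2 signal of the 59 members (rows, numbered by the smaller of their 2 rises) on the 15 arrays (columns), minus the member's mean log2 signal in wt, with colours ending at -3 and 3. The 5 wt columns are pale except for a few members. The svb and pri columns lie on the red side of the scale for all 59 members. Their colours are strongest towards the top, and many cells towards the bottom are close to white.

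Member 1, probe set 1634353_at, was bright in pri mutants alone. Its signals in wt were 4.404, 1.54, 1.71, 1.80 and 0.901, far below the level. In svb mutants they were 22.8, 23.9, 27.5, 16 and 20.6, above every wt array but still under the level. In pri mutants they were 1830, 1715, 1902, 1820 and 1886. The pri arrays lay in a narrow band, with a mean 57.2-fold above the filter level (so at least that far above wt), while the svb arrays showed a faint signal only, and the 3 groups did not overlap.

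Member 3 had the same order with a clearer signal in svb mutants. It gave 10.7, 6.39, 7.51, 11.3 and 7.66 in wt and 61.5, 76.7, 74.2, 96.9 and 66.4 in svb mutants. In pri mutants it gave 1068, 1293, 1639, 1025 and 1260. The rise over wt was at least 2.32-fold in svb and at least 38.7-fold in pri, and no array of one genotype overlapped with another genotype. Across the 15 arrays this member followed member 1 most closely of the 59 (Pearson's r = 0.99 on the log2 scale, a description that the 3 genotype levels dominate).

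In other members the svb mutants were the brightest. Member 2, probe set 1637602_at, had the widest gap between its highest wt array and its lowest mutant array, 2.56 on the log2 scale. Its wt signals were 4.80, 4.72, 5.99, 3.91 and 5.61. In svb mutants they were 86.2, 108, 121, 123 and 96.3, and in pri mutants 42.7, 64.9, 35.3, 61.0 and 71.9. All mutant arrays thus stood above the filter level and all wt arrays close to the bottom of the scale, with a rise of at least 3.31-fold in svb and at least 1.66-fold in pri.

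By its mean, member 5 was above the level in svb mutants alone. Its signals were 2.14, 0.997, 1.14, 1.84 and 1.24 in wt and 30.6, 24.6, 47.5, 91.8 and 39.6 in svb. The svb arrays with 30.6 and 24.6 were under the level, and the highest, with 91.8, was replicate 4. In pri its signals were 9.88, 7.93, 9.12, 9.71 and 6.56, which lay above wt but under the level on every array. Member 16 was alike, with 11.3, 8.49, 6.86, 14.6 and 10.3 in wt, 57.8, 59.03, 53.3, 53.6 and 78.8 in svb, and 17.02, 24.2, 28.3, 20.1 and 25.9 in pri. For both, the svb arrays did not overlap with the pri arrays.

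Member 4 stood well above the level in both mutants, whose arrays overlapped. Its signals were 22.2, 18.5, 10.7, 21.3 and 14.1 in wt, 149, 148, 173, 263 and 148 in svb, and 86.4, 162, 137, 100 and 147 in pri. The rises were at least 5.37-fold and at least 3.85-fold. This probe set can match transcripts of several genes, and which of them it reports is not known here.

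**Figure D2:**
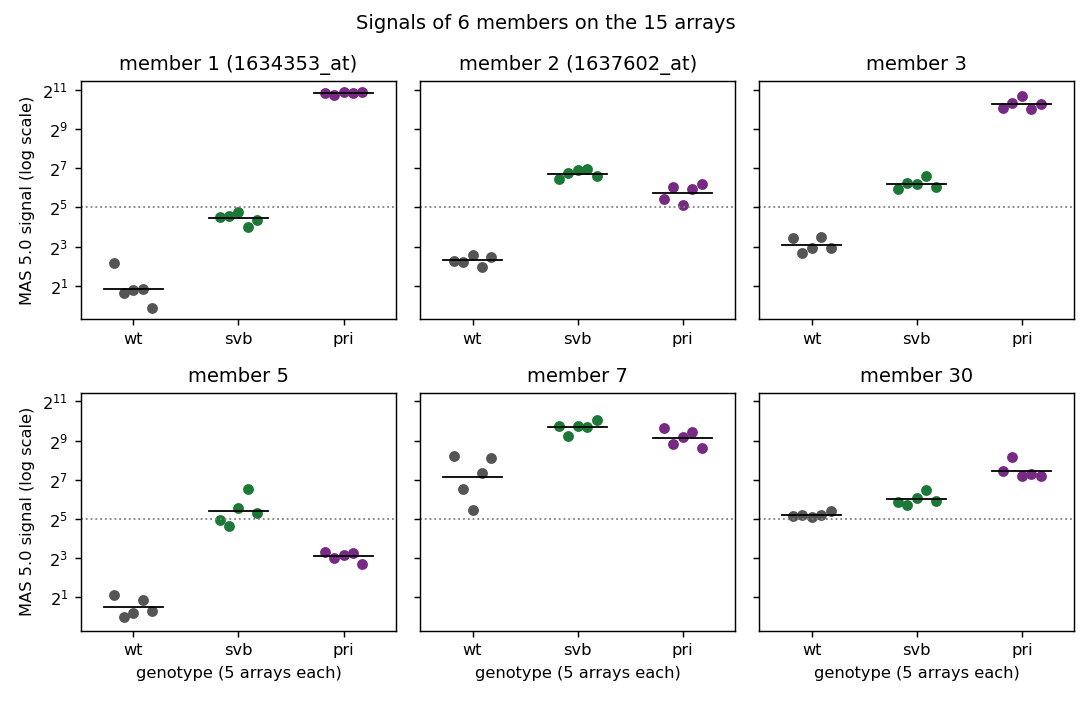
MAS 5.0 signal (log axis) of 6 members on the 5 arrays of each genotype, with bars at the geometric means and a dotted line at the filter level of 32. Members 1 and 3 are highest in pri, members 2 and 5 highest in svb, member 7 has overlapping mutant arrays, and member 30 is above the level in all genotypes and highest in pri.

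Of the 38 members above the level in wt, 6 rose at least 2-fold in both mutants. These were members 7, 12, 14, 17, 19 and 20. Of these, members 7, 14, 17 and 20 are of the kind whose probes can match transcripts of several genes. In wt, members 12 and 14 were only just above the level, with mean log2 signals of 5.00 and 5.19. Member 7 had signals of 294, 94.1, 44.6, 166 and 276 in wt. In svb it had 864, 609, 854, 826 and 1044, and in pri 789, 449, 585, 700 and 397. Its wt arrays ran from 44.6 to 294, the widest spread of the members shown here that were above the level in wt, and its mean rise was 5.85-fold in svb and 4.00-fold in pri.

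The wt arrays of member 19 differed much less. It gave 501, 492, 372, 343 and 515 in wt, 711, 1077, 729, 1078 and 970 in svb, and 1230, 1230, 1192, 1013 and 951 in pri. Its mean rise was 2.05-fold in svb and 2.55-fold in pri. Member 17 went from 281 ± 88.6 in wt to 581 ± 87.2 in svb and 704 ± 109 in pri (SD, n = 5), a rise of 2.15-fold and 2.60-fold.

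Some of these members varied together from sample to sample. After each genotype's mean was taken away, the deviations of members 7, 12, 14 and 17 over the 15 arrays were correlated with one another, with r from 0.71 to 0.91 over their 6 pairs. In wt all 4 members had their lowest signal in replicate 3, where member 12 gave 15.4 (the other wt arrays gave 30.5 to 45.8), member 14 gave 16.6 (28.5 to 60.6) and member 17 gave 153 (250 to 367). These members were picked after their values were seen, and the correlation is a description over arrays that share scaling. The probes of members 7, 14 and 17 can match transcripts of several genes, and whether these members report shared transcripts was not tested. Among all 1711 pairs of members, 7 had an r above 0.8 (0.409%), against 2.43% of all pairs of tested probe sets, and the mean r over all pairs was 0.01 for members and 0.02 for all tested.

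The other 32 members above the level in wt rose by less than 2-fold in at least 1 mutant. Member 34, for example, gave 94.4, 94.9, 96.2, 86.7 and 95.3 in wt, 185, 143, 130, 152 and 169 in svb, and 251, 236, 196, 253 and 262 in pri. Its 3 groups of arrays stood clear of one another, with small spread within wt. At the end of the order, member 59 gave 131, 132, 137, 133 and 129 in wt, 162, 154, 156, 157 and 177 in svb, and 243, 138, 138, 197 and 153 in pri. Its lowest pri array was almost equal to its highest wt array.

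Many members met the rule by a narrow margin. The gap between the lowest mutant array and the highest wt array had a median of 0.12 on the log2 scale, was at least 0.25 for 23 members and at least 1 for 7, and was under 0.1 for 28. The members nearest to the limit were numbers 31 and 57, with gaps of 0.0013 and 0.0067, and the tested probe sets just outside it had gaps of -0.0027 and -0.0123. Member 31 had 90.7 as its highest wt signal and 90.8 as its lowest mutant signal. At the level filter, members 6 and 8 were the dimmest, with their highest genotype mean at 5.06 and 5.21, and the brightest probe sets left out by it were at 4.90 and 4.87.

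The lowest mutant array of a member was an svb array for 38 members and a pri array for 21. The array of svb replicate 4, which stood apart from the other svb arrays on the first principal component (-86.9, against -45.5 to -8.52), was the lowest mutant array for 16 members. Without it, 99 probe sets met the rule, against 59 with all arrays, although fewer arrays also make the rule easier. Without wt replicate 3 there were 85 and without wt replicate 5 there were 80, whereas leaving out single pri arrays gave 59 to 68.

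**Figure D3:**
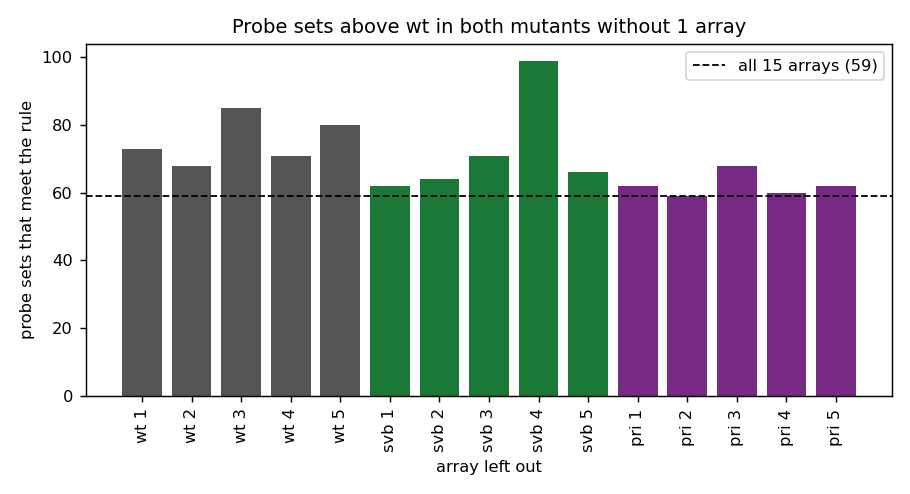
Number of probe sets that met the rule (bars, axis from 0) when the array named on the horizontal axis was left out, with the 59 of all 15 arrays as a dashed line. The bar for svb replicate 4 is the highest, at 99, followed by wt replicate 3 at 85.

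The scaling of the arrays bears on the narrow members. The authors scaled each array to the same trimmed mean. The median log2 signal of all non-control probe sets then still differed. It ran from 3.68 to 3.91 on wt arrays, 3.30 to 3.96 on svb arrays and 3.92 to 4.13 on pri arrays. Of the svb arrays, replicate 4 had 3.30 and the others had 3.63 to 3.96. With the arrays centred on their medians instead, which moved the median difference of all tested probe sets from -0.01 to 0.10 in svb and from -0.04 to -0.24 in pri, 36 of the 59 members still met the rule, and with quantile normalisation 52. All 36 also did so with quantile normalisation. They included the first 17 members. The 23 that were lost all lost the order of arrays. Other probe sets came in, so that 58 met the rule with median centring and 63 with quantile normalisation. Every member kept a mean above wt in both mutants under either scaling. With median centring this had to be so. That scaling moved svb up against wt, and the smallest rise of a member in pri, 0.29, exceeded the shift of pri.

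One sign of RNA quality moved with the mutants. The ratio of signals from the 3' and 5' ends of the actin control transcript was 2.87 to 6.07 on wt arrays, 2.64 to 3.70 on svb arrays and 2.95 to 3.44 on pri arrays. For GAPDH it was 2.49 to 3.84, 2.38 to 2.64 and 2.44 to 2.96, and for eIF-4a 5.98 to 10.3, 5.43 to 6.48 and 5.01 to 6.71, so that wt arrays reached higher ratios than either mutant. The part of this in the members' rises was not tested. The array of wt replicate 1, with the lowest ratios of the wt arrays (2.87, 2.49 and 5.98), was the highest wt array for 14 of the 59 members, and wt replicates 3 and 4, with eIF-4a ratios of 8.54 and 6.56, for 15 each. Replicates 2 and 5, with 10.3 and 8.65, were the highest for 5 and 10.

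The direct comparison of pri with svb mutants was not itself part of the rule. It asked whether the members rose further in one mutant than in the other. The rule did use the values of both mutants, since all their arrays had to lie above wt. Low values in either mutant were thereby kept out. The shares of members and of all probe sets called are therefore not like for like, and the members' adjusted p-values carry the same limit. Across all 8631 probe sets, limma called 21.5% higher and 24.7% lower in pri than in svb at an adjusted p under 0.05. Of the 59 members, 14 were called higher in pri (23.7%) and 3 lower (5.08%), while 42 were not called. The share of members called higher was thus close to that of all probe sets. Of the 17 called members, 8 had 1 mutant mean under the filter level and so passed it through the other mutant alone. Members with 1 mutant mean under the level numbered 10, and 2 of them were not called. The means of such members had to differ, and these counts are no support for a pattern.

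**Figure D4:**
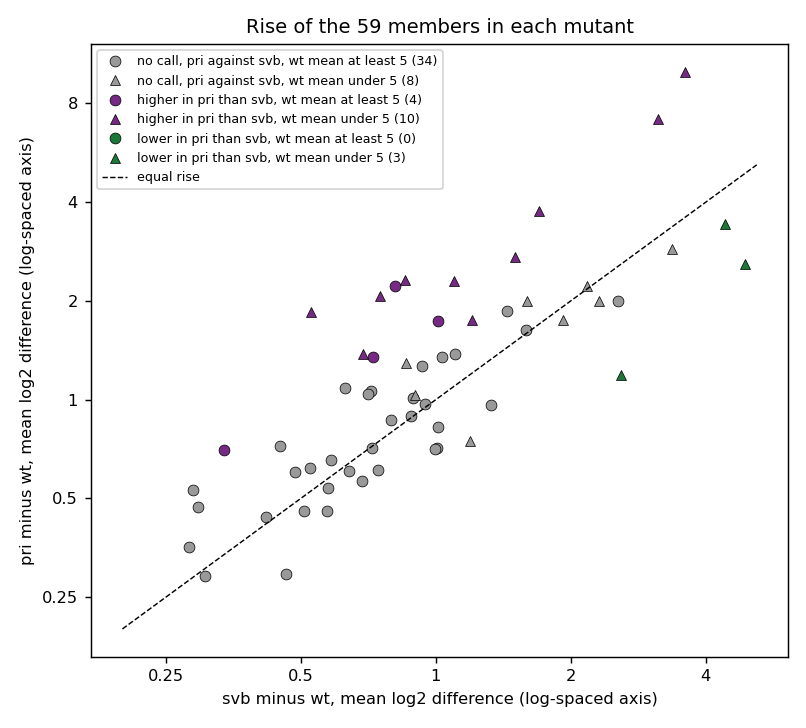
Mean log2 difference to wt of the 59 members in svb (horizontal) and in pri (vertical), both axes log-spaced, with the line of equal rise dashed, members called higher in pri purple, called lower in pri green and not called grey, and triangles for a wt mean under 5. The members called lower in pri are 3 triangles, and 4 of the 14 called higher are circles.

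Of the 14 members called higher in pri, 8 had both mutant means above the level, and 4 of these were at least 2-fold above svb. Member 3 was 16.7-fold higher (4.06 ± 0.19, SE; limma adjusted p = 3.36e-10). The other 6 passed the level through pri alone, and their difference from svb is a description with no test. For 2 of these the bound was at least 2-fold, and for member 1 it was 57.2-fold. Member 30, for which all genotypes were above the level, had signals of 35.5, 36.9, 34.4, 37.5 and 42.3 in wt. They were 59.3, 53.4, 68.4, 89.6 and 61.5 in svb and 172, 287, 145, 155 and 144 in pri. It was 2.67-fold higher in pri than in svb (limma adjusted p = 2.35e-05), without any overlap between the genotypes.

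Members 10 and 28 had 1 pri array far above the rest, that of replicate 3. Member 10 gave 44.9, 75.2, 254, 23.7 and 48.7 in pri. In svb it gave 15.9, 32.7, 15.4, 10.5 and 8.95, with a mean under the level. Its mean in pri was 1.97-fold above the level, but replicate 3 raised that mean. The pri array with 23.7 was under the level and under the svb array with 32.7. Member 28 gave 89.4, 106, 281, 74.4 and 65.6 in pri and 27.7, 35.1, 48.1, 56.6 and 30.2 in svb (2.77-fold; limma adjusted p = 0.00179). Member 28 was also called without that array.

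When only the 38 members above the level in all genotypes were taken, 4 were called higher in pri (10.5%; 16.6% of the 7277 tested probe sets that were above it in all genotypes) and 0 lower (24.3% of the 7277), with 7 and 1 at an unadjusted p under 0.05. Because the rule kept out low values in either mutant, the difference between these shares is not a result about the members. The 4 called higher were members 20, 30, 34 and 54. Member 20 was 1.65-fold higher (limma adjusted p = 0.0120), member 34 was 1.54-fold higher (0.000756) and member 54 was 1.29-fold higher (0.0492). The calls of members 20, 34 and 54 were lost with median centring (adjusted p = 0.101, 0.154 and 0.811), and that of member 54 also with quantile normalisation (0.0657), the offset (0.05004), a level of 6.5 (0.0572) or none (0.0826), the replicate block (0.0735) and when any of 12 single arrays was left out (0.0581 to 0.118). With median centring 3 of the 38 were called lower. Array weights and the fit without svb replicate 4 each called 1 lower. All other fits called 0.

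The 3 members called lower in pri than in svb were all dim in wt. Member 2 was 1.99-fold lower in pri (limma adjusted p = 0.00141), with no overlap between the mutants. This call was kept with median centring, quantile normalisation and every single array left out. Members 5 and 16 passed the level through svb alone, and as a description member 5 was at least 1.31-fold and member 16 at least 1.87-fold lower in pri.

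For the 42 members without a call, the difference between pri and svb lay between -0.55 and 0.46 on the log2 scale. This does not show that both mutants had equal levels. The 95% intervals of 20 of these members lay wholly between -0.5 and 0.5, whereas those of 22 reached past one of these bounds, the farthest to -1.40 and to 1.06. For member 59 the difference was 0.07 (95% interval -0.24 to 0.39), and with median centring it was -0.23. For member 7 the difference was -0.55 (-1.40 to 0.30), and for member 4 it was -0.48 (-0.98 to 0.03; limma adjusted p = 0.111, and called with median centring, where it was -0.78).

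**Figure D5:**
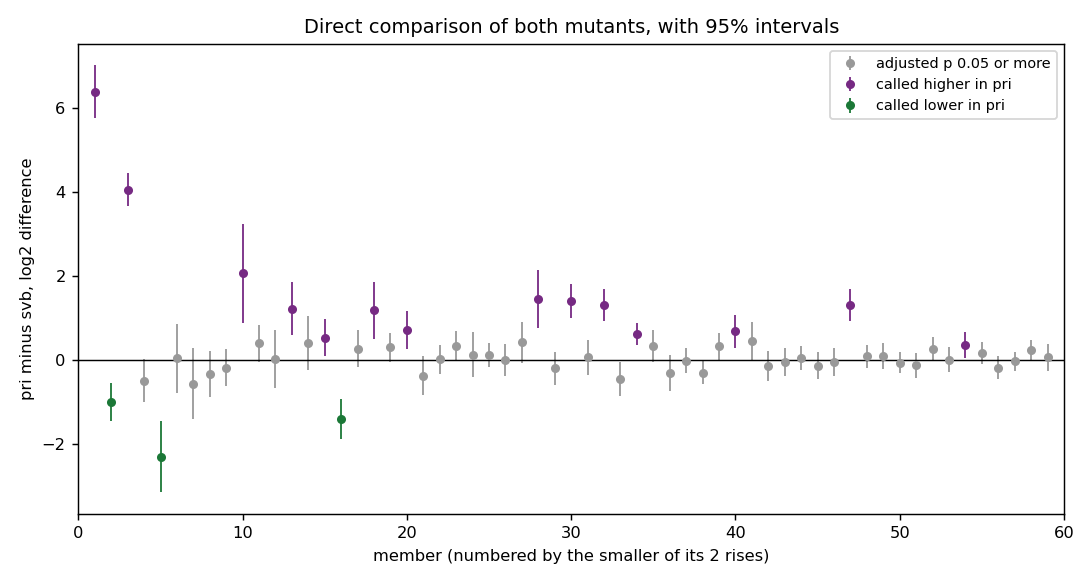
Log2 difference between pri and svb of each of the 59 members (points, in order of the smaller rise over wt), with 95% intervals from limma. The 14 purple points were called higher in pri, from 0.36 to 6.39, the 3 green points lower, from -2.30 to -0.99, and the 42 grey points were not called, and 8 of the called members passed the level through 1 mutant alone.

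The order of the mutants as a whole depended on the scaling. With the authors' scaling 38 members were higher in pri than in svb and 21 lower, called or not, with a median difference of 0.09 on the log2 scale. With quantile normalisation 36 were higher (median 0.09), but with median centring 22 were higher and the median was -0.21, while the median of all tested probe sets moved from -0.03 to -0.33. Over all tested probe sets, 46.6% of the calls were towards higher in pri with the authors' scaling and 27.3% with median centring. Of the 14 members called higher, 9 were still called with median centring and 12 with quantile normalisation.

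For completeness, the same fit called 46 of the 59 members higher in svb than in wt (2.02% of all tested probe sets were) and 57 higher in pri than in wt (18.3%). The rule had chosen the members by these differences, and nothing can be read from the counts.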

How the data were processed

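The deposited intensities are MAS 5.0 signals, 1 per probe set and array, which the authors made with Affymetrix Expression Console 1.1, setting the trimmed mean of each array to 100. The genome build of the probe annotation is not given in the sources used here. Neither scanner files nor detection calls entered the analysis, and scan batches were not tested. There were 0 unmapped columns of sample values. A further deposited table holds the same intensities for 149 genes that the authors selected; 145 rows matched 1 probe set on all 15 arrays (relative tolerance 1e-05).

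Signals were taken to log2 without an offset. After the 183 control probe sets were left out, probe sets with a highest genotype mean of at least 5 were tested. The genotypes (5 arrays each) were compared in 1 limma fit (version 3.58.1, R 4.3.3; eBayes with trend) over all 8631 probe sets, with Benjamini-Hochberg adjustment and a threshold of 0.05. The fit was tested on simulated data. Folds are 2 to the power of the difference between mean log2 signals, and bounds replace a dim mean with the level of 32. The number of arrays limits the precision.

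Only the member with the largest smaller rise and the one with the widest gap are given by identifier. The other members described were chosen after their values were seen. The members and lists were chosen with earlier results of these data known. Gene and marker lists were not used, since probe sets could not be paired with genes. The alternatives tried were median centring, quantile normalisation, an added offset of 16, a level of 6.5 or none, no trend, array weights, a replicate block, a gap of at least 0.25 and each array left out in turn.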

Additional observations from a re-analysis of the deposited data

Results flagged for a closer look

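Of the 57 groups of 5 arrays over the 19 members described singly, 9 held an array whose distance to its nearest neighbour was above 0.71 of the group's range (Dixon's criterion, on the linear signals). For normal values chance alone gives about 1 in 20 groups, but linear signals need not be normal. The share among all tested probe sets is not given here, and most of the 19 members were chosen after their values were seen. The count of 9 is therefore not a result about the members. On the log2 scale 6 of the 9 were above it too, and those of members 1, 10 and 28 were not (0.565, 0.513 and 0.671). In wt, replicate 1 was the highest for member 1 (4.4) and replicate 4 the lowest for member 34 (86.7). In svb mutants, replicate 4 was the highest for member 4 (263) and replicate 5 the highest for member 16 (78.8). In pri mutants, replicate 3 was the highest for members 10 (254) and 28 (281) and the lowest for member 54 (93.0), and replicate 2 was the highest for members 30 (287) and 31 (188).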

How the results depend on the processing

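The number of probe sets that met the rule was 39 with a level of 6.5 and 23 with a gap of at least 0.25, and 59 to 99 with 1 array left out, the most without svb replicate 4. Called members numbered 9 higher and 8 lower in pri with median centring, 6 higher and 1 lower with a level of 6.5 (39 members tested), and 5 lower with array weights. With 1 array left out they were 12 to 14 higher and 3 to 4 lower. With the replicate number as a block, 13 were called higher and 3 lower. The same-numbered arrays did not deviate together throughout (r from -0.61 to 0.37, with 7 of 15 pairs above 0.1). Whether some of them share a batch was not tested.

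Over all 59 members, 38 were higher in pri than in svb with the authors' scaling and 22 with median centring. Among the 19 members described singly, the sign turned for 4, none of them called. For member 12 the log2 difference was -0.0156 with quantile normalisation, -0.256 with median centring and -0.164 with array weights, and ran from -0.153 (without svb replicate 4) to 0.219 (without pri replicate 2) with single arrays left out. With median centring it was -0.0234 for member 17, -0.228 for member 31 and -0.227 for member 59. With single arrays left out it ran from -0.0661 (without pri replicate 2) to 0.182 for member 31, and from -0.0570 (without pri replicate 1) to 0.148 for member 59. The cause was not tested. Of the other values for single members, 400 stayed on their side of the threshold, 20 lost a call and 1 gained one.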
